A study of Mus musculus with 4 samples.

Results

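Arterial endothelial cells line the vessels that carry blood into a tissue under pressure. They are kept apart from capillary and venous endothelium by Notch signaling, with the ligand Dll4 and targets such as Hey1, by SOXF transcription factors such as Sox17, and by the gap junction proteins connexin 40 (Gja5) and connexin 37 (Gja4), which couple neighboring cells electrically. In the lung they run from the elastic pulmonary artery down to the arterioles that feed the capillary bed, where general capillary cells (marked by Gpihbp1) and aerocytes (marked by Ednrb and Car4) exchange gas.

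The arterial cells described here were selected on their own counts, from lungs 14 days after bleomycin. A cell counted as arterial when it held at least 1 unique molecular identifier (UMI) of Cdh5 (VE-cadherin), at least 1 of Gja5, and at least 1 of Bmx, Fbln5, Gja4 or Efnb2, and none of Ednrb, Slc6a2, Prox1, Ptprc, Epcam or Pdgfra, which mark aerocytes, venous, lymphatic, immune, epithelial and fibroblast cells. Of the 30860 cells that had between 200 and 7500 genes and at most 15% mitochondrial UMIs, 245 passed. They were part of 3262 endothelial cells (Cdh5 detected, Ptprc, Epcam and Pdgfra not), beside 1806 cells of a capillary gate (Gpihbp1 detected), 505 of an aerocyte gate (Ednrb detected), 122 of a venous gate (Slc6a2 detected), 103 of a lymphatic gate (Prox1 detected) and 481 others. The capillary, aerocyte, venous and lymphatic gates required Gja5 at 0.

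The mice were 2 WT animals and 2 Tubb3-/- littermates, 8 to 11 weeks old. The paper used both sexes outside its hydroxyproline assay, but the sex of each of these 4 mice is not given, so it may differ between the genotypes. All 4 had received bleomycin (0.8 U/kg into the trachea), so that no untreated lung was compared. The Tubb3-/- mice are homozygous for a Cre sequence placed at the translation start of Tubb3, the gene of β-III tubulin, and thus lack the gene in every cell type and carry Cre. Each mouse gave whole cells, from which TER-119-positive erythroid cells had been removed, and mural cell-enriched cells. From the latter, endothelial (CD31), immune (CD45), epithelial (EpCAM) and erythroid cells had been removed. The cells of all 4 mice were then tagged by mouse and pooled by sample type before sorting and capture. The mural cell-enriched pool was sorted to equal parts of MCAM+ PDGFRα- and MCAM- cells. A library here means the cells of a mouse in a pool. WT mice contributed 37 and 60 arterial cells, Tubb3-/- mice 78 and 70. The whole-cell libraries held 185 of them, and 60 came from the mural cell-enriched libraries in spite of the depletion by CD31, an endothelial surface protein. The mouse is the replicate throughout (n = 2 per genotype), and the cells of both libraries of a mouse were summed.

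The 8 libraries held between 41462258 and 95036340 gene UMIs. Tubb3 checked the genotype labels, with 3.99 and 2.42 CPM (UMIs of a gene scaled to a total of 1e6 UMIs) over all cells of the WT mice against 0.517 and 0.529 CPM for Tubb3-/-. In the arterial cells Tubb3 was at 0 UMIs in 3 mice and at 2 UMIs in Tubb3-/- mouse 1, and Cre was at 0 in all 4, so that the targeted gene was not measurable in arterial cells of either genotype at this depth. The summed arterial cells held 254466 and 556182 UMIs for WT against 1011078 and 742410 UMIs for Tubb3-/-, with medians of 6353, 7456, 9423.5 and 7767.5 UMIs per cell, so that the WT values, those of mouse 1 above all, rest on fewer molecules. No cell barcode occurred in more than 1 library of a pool, and 59 occurred in both pools, none of them in an arterial cell. No doublets were removed from the main data. By a marker test, at least 2 marker genes of another cell class detected, 122 of the 245 arterial cells (49.8%) looked like doublets, against 47.7% of the capillary-gate cells. A stricter test asked for at least 2 UMIs of each such marker gene. It flagged 0 of 37 and 3 of 60 arterial cells in WT against 14 of 78 and 10 of 70 in Tubb3-/- mice. The part of depth in this imbalance, and its part in the genotype calls below, were not tested.

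The 245 cells were not a uniform arterial population. Efnb2, the ephrin-B2 ligand, was detected in 228 of them (93.1%) and Gja4 in 198 (80.8%), but these genes are not confined to arteries in these data. Among 2008 cells picked by Gpihbp1 with Gja5 left free, Efnb2 was detected in 82.9% and Gja4 in 66.6%. Bmx, a Tec-family kinase of arterial endothelium, was detected in 90 arterial cells (36.7%), and Fbln5, an elastin-binding matrix protein, in 80 (32.7%). All 4 of these genes were found in 43 cells, 3 in 59, 2 in 104 and only 1 in 39, for which the single gene was Efnb2 in 26 and Gja4 in 11. These genes chose the cells, so their values are given as a description.

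Gja5 itself was sparse, with 1 UMI in 117 cells, 2 UMIs in 44, 3 in 26 and at least 4 in 58, up to 24. Its summed level was 318 and 388 CPM in the arterial cells of the WT mice and 243 and 237 CPM in those of the Tubb3-/- mice. The share of arterial cells with at least 2 UMIs was 43.2% (95% Wilson interval 28.7 to 59.1%) and 56.7% (44.1 to 68.4%) for WT against 51.3% (40.4 to 62.1%) and 54.3% (42.7 to 65.4%) for Tubb3-/-, with intervals, for counting error only, that overlapped. In immune cells without Cdh5, which should lack the gene, Gja5 was detected in 2.54% of cells at a median of 10212 UMIs, against 9.29% of the 3262 endothelial cells at a median of 7450.5 UMIs. In Pdgfra-positive cells without Cdh5, which are deeper (median 18608 UMIs), it was detected in 18.8%, and with at least 2 UMIs in 7.30%, so that a single UMI of Gja5 does not by itself mark endothelium in this lung. Just outside the rule lay 4 endothelial cells with Gja5 but none of the other 4 genes, 164 without Gja5 but with 3 or 4 of the others, and 42 with both Gja5 and Ednrb.

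The markers that the rule did not use separated the cells by the number of Gja5 UMIs. Mecom, a zinc finger transcription factor of arterial endothelium, rose from 31.8 CPM in the capillary gate to 96.2 CPM in arterial cells with 1 Gja5 UMI, 417 CPM in those with 2 or 3 and 1066 CPM in those with at least 4. Cytl1, a small secreted protein, was at 1.14 CPM in the capillary gate and at 6.87, 163 and 412 CPM in the same order. Plat, which encodes tissue plasminogen activator, stood at 127 CPM in the capillary gate and at 234, 469 and 1200.0 CPM. Capillary genes differed among themselves. Sema3c, a secreted semaphorin, was at 1986 CPM in the capillary gate and at 1026, 898 and 231 CPM in the arterial cells, and Kit, the stem cell factor receptor, at 462 CPM and then at 332, 313 and 125 CPM. Gpihbp1 was at 957, 1091 and 634 CPM in the arterial cells, and Plvap, a protein of endothelial fenestrae, at 827 CPM in the capillary gate and at 770.2, 872 and 1020.1 CPM, so that it did not fall with Gja5. Cells with 1 Gja5 UMI, 117 of the 245, thus lay nearer to the capillary gate in Mecom, Cytl1, Plat, Sema3c and Kit, and cells with at least 4 carried the arterial markers. Sox17 did not order the cells, with 327 CPM in the capillary gate and 297, 309 and 285 CPM in the arterial cells. These groups were formed after the values had been seen and were not tested.

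A few cells that passed the rule carried hardly any endothelial RNA. Over 8 general endothelial genes (Pecam1, Cldn5, Egfl7, Tie1, Esam, Ramp2, Kdr and Eng), 7 cells held 0 to 19.5 UMIs per 10000, while the next cell held 28.6 and the median was 71.8. All 7 had a single UMI of Gja5, and together they held 6.73% of the arterial UMIs. Tubb3-/- mouse 1 contributed 4 of them, Tubb3-/- mouse 2 contributed 2 and WT mouse 1 contributed 1. Each was rich in the genes of another cell type. In 2 Tubb3-/- cells, 164 and 184 UMIs fell on 5 mesothelial genes, in another 1156 UMIs fell on 10 fibroblast genes, and in 3 others 165 to 244 UMIs fell on 12 mural genes. The WT cell held 10527 UMIs of 10 epithelial genes, 10503 of them from Scgb1a1, the secretoglobin of club cells. The comparisons below were therefore also run without these 7 cells and, between classes, without the cells of the other class under the same limit, a choice made after the data had been seen.

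Arterial cells were first set against the capillary gate within the same 4 mice, which asks what distinguished the Gja5-positive cells from their capillary neighbors in the same injured lungs. Of 9544 genes tested, 385 (4.03%) were higher and 301 (3.15%) lower in arterial cells. Of 28 arterial identity genes outside the rule, 25 were tested, 14 rose and 1 fell, with a median log2 fold change of 0.54 against -0.0034 over all genes tested. Of the 6 such markers used to check the label, Mecom, Dll4, Hey1 and Sema3g rose, while Sox17 (log2 fold change -0.08 ± 0.11 (SE), adjusted p = 0.795) and Jag1 (0.43 ± 0.18 (SE), adjusted p = 0.23) did not pass the test.

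Mecom (chr3:29951296-30548008, minus strand) had 811, 768, 377 and 273 CPM in the arterial cells against 30.3, 41.9, 32.9 and 25.4 CPM in the capillary gate, in the order WT 1, WT 2, Tubb3-/- 1 and Tubb3-/- 2 (log2 fold change 3.91 ± 0.18 (SE), adjusted p = 1.03e-07). Cxcl12, the chemokine ligand of CXCR4 (chr6:117168535-117181367, plus strand), had 2069, 2262, 1919.9 and 2159.8 CPM in the arterial cells against 795, 599.6, 777 and 848 CPM (1.49 ± 0.11 (SE), adjusted p = 5.3e-06). Both genes were higher in the arterial cells of every mouse, with no overlap of the classes. Notch signaling genes moved less. Dll4 had 142, 255, 95.1 and 133 CPM in the arterial cells against 70.5, 101, 52.6 and 62.9 CPM (1.08 ± 0.12 (SE), adjusted p = 0.00013), and Hey1, Notch1 and the feedback inhibitor Nrarp rose by 0.73, 0.52 and 0.95 on the log2 scale. Hes1 and the Notch inhibitor Numb fell by 0.46 and 0.50, so that of 23 Notch pathway genes tested 4 rose, 2 fell and 17 did not pass. Dll4 overlaps the noncoding gene Gm14207 on the opposite strand.

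The 10 largest rises were those of Cytl1, Olfm2, Lama3, Slc45a4, Esr2, Thsd7a, Adgrg6, Mecom, Stk32a and Cmklr1. Thsd7a, a thrombospondin-domain protein, had 251, 349.6, 179 and 159 CPM in the arterial cells against 12.8, 17.7, 10.6 and 11.2 CPM (log2 fold change 4.10 ± 0.13 (SE), adjusted p = 6.34e-09). Adgrg6, the adhesion G protein-coupled receptor GPR126 (chr10:14402583-14545659, minus strand), had 447, 568, 189 and 105 CPM in the arterial cells against 19.8, 22.6, 12.5 and 13.2 CPM (4.04 ± 0.21 (SE), adjusted p = 3.65e-07). For both, every arterial value lay above every capillary value. Cytl1 had 397, 244, 179 and 29.3 CPM in the arterial cells against 0, 0.982, 1.00 and 1.77 CPM (7.05 ± 0.44 (SE), adjusted p = 1.5e-06), and its lowest arterial value, in Tubb3-/- mouse 2, was far under the other 3. Esr2 (estrogen receptor β) and Cmklr1, a receptor for the adipokine chemerin, rose by 4.21 and 3.83 on the log2 scale.

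Some genes of the vessel wall and of hemostasis were higher. Ltbp4, which binds latent TGF-β and helps to assemble elastic fibers, had 468, 564, 380.3 and 272 CPM in the arterial cells against 85.7, 89.7, 53.8 and 62.1 CPM (log2 fold change 2.52 ± 0.12 (SE), adjusted p = 1.36e-07). Fibulin 2 (Fbln2, 2.62), lysyl oxidase (Lox, 1.86), fibrillin 1 (Fbn1, 1.81) and clusterin (Clu, 0.95) rose as well, and Mfap2 fell by 0.57, so that 5 of 23 elastic fiber and vessel wall genes tested rose and 1 fell. Elastin (Eln) itself had a log2 fold change of 0.31 ± 0.09 (SE), adjusted p = 0.0701. Among basement membrane genes, Lama3 (4.80), Col18a1 (1.20), Lamb2 (0.72) and Lama5 (0.57) rose, while Col4a1 and Col4a2, the chains of the main collagen IV trimer, each fell by 0.50. Vwf (von Willebrand factor) had 1028, 1859, 1109 and 675 CPM in the arterial cells against 204, 221, 279 and 205 CPM (2.27 ± 0.17 (SE), adjusted p = 7.81e-06), and Plat rose by 2.28. Of 12 coagulation genes tested, 3 rose, 1 fell and 8 did not pass.

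Of 23 vasoactive genes tested, 4 rose and 3 fell. Edn1 (endothelin 1, a constrictor) had 451, 568, 607 and 411 CPM in the arterial cells against 263, 179, 416 and 247 CPM (log2 fold change 0.92 ± 0.15 (SE), adjusted p = 0.00254), and Nos3, the endothelial nitric oxide synthase, rose by 0.74 (adjusted p = 0.0267). Npr3, the natriuretic peptide clearance receptor, fell by 0.90, and Ptgs1 (cyclooxygenase 1) fell too, with 25.1, 5.55, 27.9 and 18.7 CPM in the arterial cells against 56.0, 74.0, 47.0 and 52.6 CPM. The flow-responsive factor Klf2 rose by 0.47 (adjusted p = 0.0261), and Klf4 had a log2 fold change of 0.21 ± 0.14 (SE), adjusted p = 0.491. Leukocyte adhesion genes rose in 8 of 21 cases and fell in 2. Vcam1, the ligand of the integrin VLA-4, had 146, 239, 222 and 77.4 CPM in the arterial cells against 29.1, 18.0, 22.5 and 14.2 CPM (3.04 ± 0.21 (SE), adjusted p = 3.2e-06), and the selectins Selp and Sele rose by 1.51 and 3.06. Cx3cl1 (fractalkine) and Cxcl16, both membrane-bound chemokines, rose by 1.55 and 1.46.

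Of 12 capillary marker genes tested besides the gate gene, 7 fell and none rose, with a median log2 fold change of -0.53. Sema3c had 907, 560.4, 788 and 896 CPM in the arterial cells against 2207, 1965, 1896 and 2032 CPM (log2 fold change -1.38 ± 0.11 (SE), adjusted p = 9.63e-06). Kit fell by 0.83, Glp1r by 1.15 and Aplnr, the apelin receptor, by 1.99. The 2 steepest falls were Fabp4, a fatty acid-binding protein, with 8.36, 7.40, 12.4 and 2.67 CPM in the arterial cells against 178, 56.3, 48.6 and 46.7 CPM (-2.97 ± 0.30 (SE), adjusted p = 7.38e-05), and Edil3 (-2.09). Of 13 aerocyte markers tested, 4 fell (Car4, Apln, Prx and Pmp22) and none rose. Of 17 MHC genes tested, 6 fell and none rose. H2-Ab1, an MHC class II chain, had 179.7, 144, 183 and 295 CPM in the arterial cells against 262, 272, 276 and 393 CPM (-0.60 ± 0.10 (SE), adjusted p = 0.0033), and Ciita, the class II transactivator, fell by 0.87. H2 genes and guanylate-binding protein genes have close copies, so their counts are uncertain to that extent. Of 35 interferon response genes tested 1 fell (Irgm1, 0.63) and none rose. In immediate-early genes, which also react to tissue dissociation, 6 of 19 rose and 1 fell, with Fos at 2157, 2551, 2176 and 1451 CPM in the arterial cells against 1394, 1415, 1319.8 and 1041 CPM (0.67 ± 0.09 (SE), adjusted p = 0.000532).

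**Figure D1:**
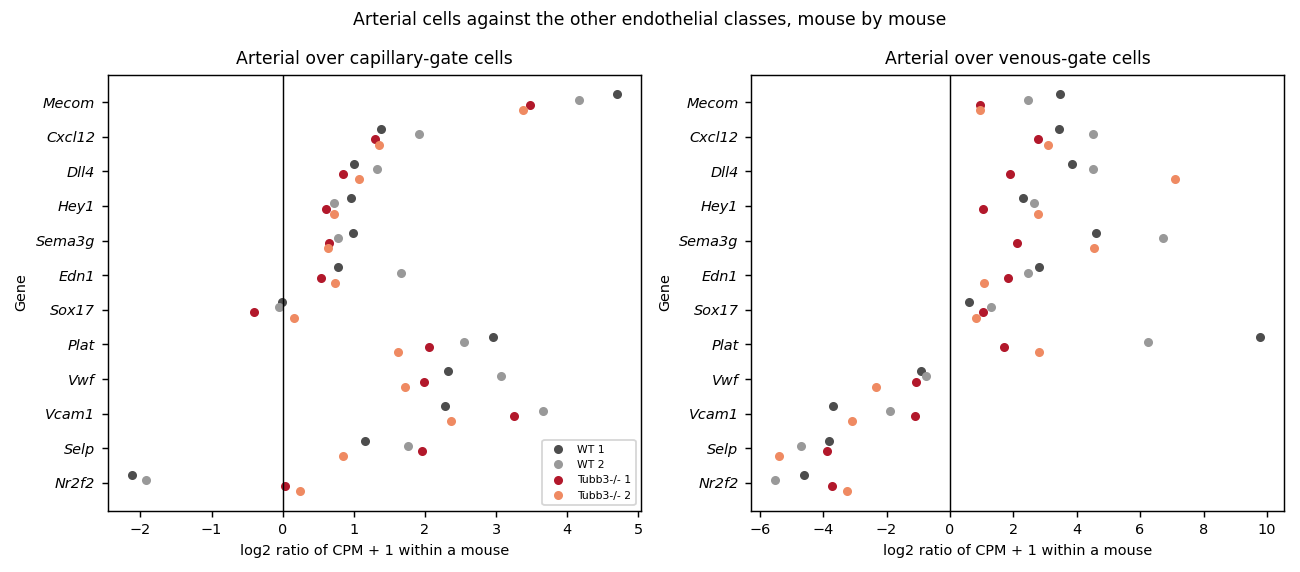
Log2 ratio (CPM + 1) of arterial over capillary-gate cells (left) and over venous-gate cells (right) for 12 genes, 1 point per mouse. Mecom, Cxcl12 and Dll4 lay above 0 in all 4 mice in both panels, Sox17 lay near 0 against capillaries and above 0 against veins, and Vwf, Vcam1 and Selp were higher than in capillaries but lower than in veins.

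Leaving out the cells low in endothelial genes from both classes, 7 arterial and 29 capillary-gate cells, gave 461 higher (4.94%) and 407 lower genes (4.36%) of 9339 tested. Restricting the arterial class to cells with at least 2 Gja5 UMIs gave 485 higher (5.39%) and 443 lower (4.92%) of 9002 tested, in spite of fewer cells. Leaving out Tubb3-/- mouse 1 lowered the total from 686 to 430.

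The comparison with the venous gate asked the same of the other large-vessel endothelium. Of 5774 genes tested, 292 (5.06%) were higher and 340 (5.89%) lower in arterial cells. Arterial identity genes outside the rule rose in 17 of 23 cases and fell in 1 (Vegfc), with a median log2 fold change of 0.92 against 0.0054 over all genes. Against veins, Sox17 was higher in every mouse, with 307, 259, 288 and 382 CPM in the arterial cells against 202, 104, 139 and 215 CPM in the venous gate (log2 fold change 0.96 ± 0.17 (SE), adjusted p = 0.00148). CPM values here differ slightly from those above, since counts were normalized within each comparison.

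Cxcl12 had 2111, 2315, 1961 and 2226 CPM in the arterial cells against 193, 101, 283 and 259 CPM (log2 fold change 3.39 ± 0.22 (SE), adjusted p = 2.78e-07), and Sema3g, a semaphorin of arterial endothelium, had 469, 466, 325 and 366 CPM in the arterial cells against 18.4, 3.47, 73.7 and 14.7 CPM (3.72 ± 0.41 (SE), adjusted p = 3.06e-05). Both separated the classes without overlap. Dll4 rose by 3.67, Hey1 by 2.10, Unc5b (a netrin receptor) by 2.74, Edn1 by 1.89 and Jag2 by 1.41, while Jag1 had a log2 fold change of 0.07 ± 0.31 (SE), adjusted p = 0.959. Efna5, an ephrin ligand, had 115, 127, 165 and 121 CPM in the arterial cells against 0, 0, 5.67 and 0 CPM (adjusted p = 1.05e-06), and Atp13a3, a polyamine transporter, had 226, 445, 231 and 463 CPM in the arterial cells against 9.18, 13.9, 17.0 and 26.5 CPM (4.27 ± 0.25 (SE), adjusted p = 8.75e-08). The venous level of Efna5 rests on so few UMIs that no fold is given.

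Of 14 venous markers tested, 13 fell and none rose, with a median log2 fold change of -3.04. Nr2f2 (COUP-TFII), the transcription factor that holds venous identity, had 8.53, 7.57, 44.3 and 44.0 CPM in the arterial cells against 229.6, 388, 595 and 424 CPM (log2 fold change -3.92 ± 0.27 (SE), adjusted p = 3.31e-07). Selp had 136, 39.8, 64.4 and 23.4 CPM in the arterial cells against 1919.5, 1050.4, 958 and 1018 CPM (-4.38 ± 0.23 (SE), adjusted p = 3.09e-08), and Vcam1 fell by 2.34 and Icam1 by 1.82. Ackr1, the atypical chemokine receptor of venules, had 4.26, 0, 0 and 0 CPM in the arterial cells against 294, 132, 394 and 144 CPM (adjusted p = 3.09e-08) and was all but absent from arterial cells. Ptgs2 (cyclooxygenase 2) had 42.6, 30.3, 23.2 and 23.4 CPM in the arterial cells against 2195, 1127, 331 and 736 CPM (-4.88 ± 0.24 (SE), adjusted p = 2.87e-08), Vegfc fell by 3.14 and Vwf by 1.26. Lrg1, a glycoprotein that promotes angiogenesis and that the study follows in endothelial cells, had 328, 179.8, 704 and 459 CPM in the arterial cells against 1653, 881, 2788 and 2893 CPM (-2.31 ± 0.14 (SE), adjusted p = 2.17e-07), so that its arterial level lay below the venous one in every mouse. Ntrk2, the BDNF receptor also followed there, was higher in arterial than in venous cells by 1.59 (adjusted p = 0.00669).

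Smad6, an inhibitor of BMP signaling (1.80), Bmp6 (1.38), Vegfa (1.77) and the hypoxia-inducible lipid droplet protein Hilpda (2.65) were higher in arterial than in venous cells, as was Ace, the angiotensin-converting enzyme (1.41). Of 17 vasoactive genes tested, 2 rose (Ace and Edn1) and 4 fell (Ptgs2, Ptgs1, Ptgis and Ramp3). Ptgs1 fell by 3.53 and Ptgis fell by 1.85. In contrast with the capillary comparison, no immediate-early gene rose and 4 of 17 fell (Junb, Ier3, Zfp36 and Socs3). Leaving out Tubb3-/- mouse 2 lowered the total from 632 to 376. The arterial and capillary and the arterial and venous comparisons share the same arterial sums, so their lists are not independent of each other.

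**Figure D2:**
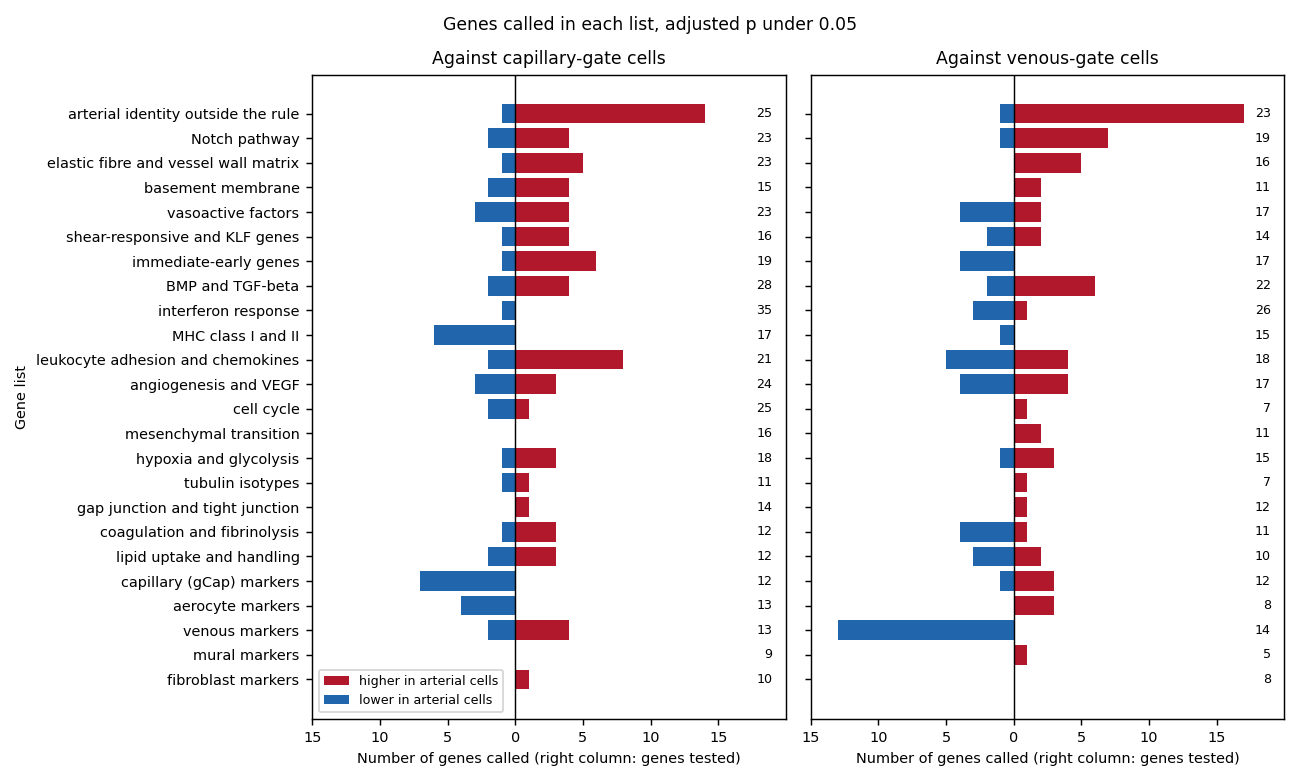
Number of genes called higher (red) and lower (blue) in arterial cells in each gene list with at least 5 genes tested in both comparisons, against the capillary gate (left) and the venous gate (right), with the number tested beside each bar. Arterial identity genes were called higher in 14 of 25 and 17 of 23 cases, venous markers were called lower than in veins in 13 of 14, and capillary markers lower than in capillaries in 7 besides the gate gene.

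Bleomycin-treated Tubb3-/- mice were then compared with WT mice in the arterial cells alone, which asks whether loss of Tubb3 changed this endothelium in the injured lung. Of 7775 genes tested, 146 (1.88%) passed, with 94 rising (1.21%) and 52 falling (0.669%) in Tubb3-/- animals, and the median log2 fold change of all genes was -0.0048. The values of the genotypes did not overlap for 3192 of these genes (41.1%), so that lack of overlap alone says little with so few mice. The 7 cells weighed heavily on the higher genes. For 55 of the 146, of which 53 were higher, more than 50% of the UMIs lay in those cells. Without them, 37 of 7583 genes (0.488%) were higher and 42 (0.554%) lower, and 72 genes, 34 higher and 38 lower, were called both ways.

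**Figure D3:**
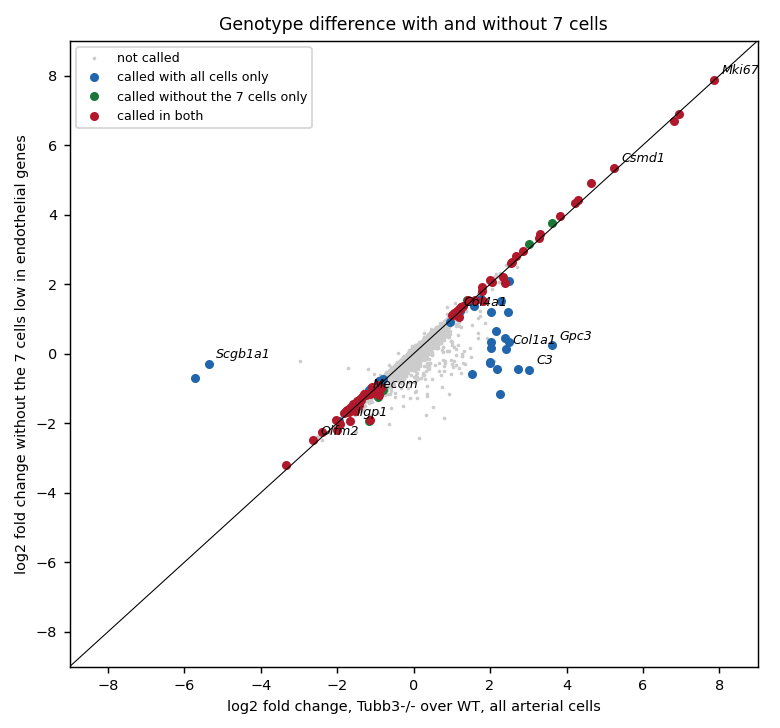
Log2 fold change of Tubb3-/- over WT in all arterial cells (horizontal) and without the 7 cells low in endothelial genes (vertical), 1 point per gene. The 72 genes called both ways (red) lie near the diagonal, while C3, Gpc3 and Col1a1, called with all cells only (blue), lay between -0.47 and 0.24.

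Genes of mesothelium and fibroblasts were among those with most of their UMIs in the 7 cells. Msln (mesothelin) had 8.37 and 3.71 CPM in the WT mice against 90.9 and 158 CPM in the Tubb3-/- mice (adjusted p = 0.000173), and 93.8% of its UMIs lay in the 7 cells. C3, the complement component, had 41.8 and 39.0 CPM in the WT mice against 279 and 379 CPM in the Tubb3-/- mice (log2 fold change 3.03 ± 0.29 (SE), adjusted p = 8.14e-05), with 87.5% of its UMIs there and an adjusted p of 0.775 without them. Col1a1 had 117 and 53.8 CPM in the WT mice against 654 and 178 CPM in the Tubb3-/- mice (2.41 ± 0.48 (SE), adjusted p = 0.0113), with 77.5% there, and without them its adjusted p was 0.954. The summed level of 5 mesothelial genes was 9.0 to 27.5 CPM in WT and 171 to 259 CPM in Tubb3-/- mice with the 7 cells, and 9.0 to 25 and 8.9 to 11.6 CPM without them. Of the 10 largest rises, 8 had between 91.8% (Slc39a8) and 98.6% (Fxyd3) of their UMIs in the 7 cells, and the other two were Mki67 and Csmd1. On the WT side, Scgb1a1 had 44581 and 742 CPM in the WT mice against 535 and 572 CPM in the Tubb3-/- mice, with 88.1% of its UMIs in the 7 cells, and without them its adjusted p was 0.726.

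Among the genes called both ways, the interferon-linked genes Iigp1 and Irf1 were lower in Tubb3-/- mice. Iigp1, an immunity-related GTPase induced by interferon γ, had 469 and 482 CPM in the WT mice against 158 and 140.2 CPM in the Tubb3-/- mice (log2 fold change -1.67 ± 0.22 (SE), adjusted p = 0.000706). Irf1, a transcription factor induced by interferon γ (chr11:53770014-53778374, plus strand), had 502 and 469 CPM in the WT mice against 186 and 235 CPM in the Tubb3-/- mice (-1.21 ± 0.23 (SE), adjusted p = 0.0075). For both genes both WT mice lay above both Tubb3-/- mice, and the UMIs were spread over 110 and 174 cells. Without the 7 cells the log2 fold changes were -1.94 (adjusted p = 0.000303) and -1.15 (adjusted p = 0.0147). Iigp1 has a close copy, Gm4951, on the same chromosome, so that part of its count may belong there, and Irf1 overlaps the noncoding gene Gm17334 on the opposite strand. These 2 were the only ones of 30 interferon response genes tested to pass, none rose, and the median log2 fold change of the list was -0.28. Without the 7 cells it was -0.52, with the same 2 genes called. Isg15, a type I interferon target, had a log2 fold change of -0.29 ± 0.34 (SE), adjusted p = 0.85. In the venous comparison above, Irf1 was also lower in arterial than in venous cells (-0.79).

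Mecom, Adgrg6 and Olfm2, which were among the largest rises over capillaries, were lower in Tubb3-/- mice. Mecom had 812 and 770.1 CPM in the WT mice against 377 and 276 CPM in the Tubb3-/- mice (log2 fold change -1.27 ± 0.22 (SE), adjusted p = 0.00393). Adgrg6 had 448 and 569.7 CPM in the WT mice against 189 and 107 CPM in the Tubb3-/- mice (-1.78 ± 0.27 (SE), adjusted p = 0.00165). In both genes both WT mice lay above both Tubb3-/- mice. Olfm2, an olfactomedin-domain protein, had 62.8 and 121 CPM in the WT mice against 18.6 and 12.1 CPM in the Tubb3-/- mice (-2.63 ± 0.38 (SE), adjusted p = 0.00137), and Pdlim3, a PDZ and LIM domain protein of the actin cytoskeleton, had 129.7 and 109 CPM in the WT mice against 42.3 and 17.5 CPM in the Tubb3-/- mice (-1.92 ± 0.35 (SE), adjusted p = 0.00623). Bdkrb2 (bradykinin receptor B2, -1.83), Grik2 (a kainate receptor subunit, -2.04), Cyp4b1 (-1.29) and Apoe (-0.91) fell as well and were also called without the 7 cells. Plat (-0.90 ± 0.22 (SE), adjusted p = 0.0428), Pde3a, Fosb and Lyve1 fell in the fit with all cells, with adjusted p values of 0.134, 0.104, 0.0819 and 0.0752 without the 7 cells.

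Other arterial identity genes were not called. Of 26 tested, Mecom alone was called, with a median of -0.23, and none of 22 Notch pathway genes was called in either direction (median -0.26). Since 1.88% of all genes tested were called, few calls would be looked for in lists this short. Cxcl12 had a log2 fold change of -0.08 ± 0.18 (SE), adjusted p = 0.93, Sox17 of 0.25 ± 0.24 (SE), adjusted p = 0.785 and Dll4 of -0.86 ± 0.28 (SE), adjusted p = 0.168. The level of Mecom was higher in cells with more Gja5 UMIs (above). The CPM of Gja5 was lower in Tubb3-/- mice, also among cells with at least 2 UMIs (501 and 516 against 373 and 408 CPM). Gja5 chose the cells, and the Tubb3-/- cells were deeper by median, so these values are a description only. As counts, 37 and 60 WT cells held 81 and 216 Gja5 UMIs, and 78 and 70 Tubb3-/- cells held 246 and 176. The part of Gja5 in the Mecom difference was not tested. In cells with at least 2 UMIs, Mecom was at 1527 and 1032 CPM for WT against 575 and 518 CPM for Tubb3-/-. In cells with 1 UMI it was at 81.7 and 186 against 97.1 and 56.5 CPM, and the genotypes overlapped. Of 19 immediate-early genes tested, Fosb was called and none had a positive log2 fold change (median -0.54).

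Both chains of the main collagen IV and Sparc rose. Of 12 basement membrane genes tested, Col4a1, Col4a2, Col4a5 and Sparc rose and none fell, with a median log2 fold change of 0.90. Without the 7 cells, 3 of 11 were called (Col4a1, Col4a2 and Sparc), with a median of 0.49, and 82% of the Col4a5 UMIs lay in the 7 cells. Col4a1 had 753 and 569.7 CPM in the WT mice against 1308 and 1539.7 CPM in the Tubb3-/- mice (log2 fold change 1.12 ± 0.20 (SE), adjusted p = 0.00623), and Col4a2 had 393 and 386 CPM in the WT mice against 854 and 938 CPM in the Tubb3-/- mice (1.20 ± 0.20 (SE), adjusted p = 0.00352). Sparc (osteonectin, chr11:55394500-55423183, minus strand), a collagen-binding matrix protein, had 870.4 and 781 CPM in the WT mice against 1834 and 1904 CPM in the Tubb3-/- mice (1.18 ± 0.18 (SE), adjusted p = 0.00169). In all 3 genes the WT and Tubb3-/- values did not overlap, as in 41.1% of all genes tested. The UMIs of Col4a1, Col4a2 and Sparc were spread over 218, 199 and 237 of the 245 cells. Col4a1 (chr8:11198423-11312826, minus strand) and Col4a2 (chr8:11312805-11449287, plus strand) are neighbors that are transcribed away from a shared promoter, with RefSeq start sites 21 bases apart (GRCm38.p6). Their spans overlap there, so without a strand setting reads from the overlap cannot be assigned. The laminin gene Lama5 (-0.36 ± 0.26 (SE), adjusted p = 0.702), Lamb2 and Nid1 were not called.

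Lrg1 (chr17:56119678-56122001, minus strand) was higher in Tubb3-/- mice, with 322 and 176 CPM in the WT mice against 689 and 450.3 CPM in the Tubb3-/- mice (log2 fold change 1.24 ± 0.28 (SE), adjusted p = 0.0283). Lpl (lipoprotein lipase) had 289 and 288 CPM in the WT mice against 719.7 and 473 CPM in the Tubb3-/- mice (1.05 ± 0.24 (SE), adjusted p = 0.0272), and Cd34, a sialomucin of capillary and progenitor cells, had 167 and 145 CPM in the WT mice against 317 and 359 CPM in the Tubb3-/- mice (1.13 ± 0.24 (SE), adjusted p = 0.0147). Ackr3 (the scavenging receptor of CXCL12, 1.00), Nrp2 (neuropilin 2, a VEGF-C co-receptor, 2.38) and Tfpi (tissue factor pathway inhibitor, 1.60) rose too, and all 6 were called without the 7 cells. For Lrg1 the mice of a genotype differed from each other, but the genotypes did not overlap. Nr2f2 rose in the fit with all cells (8.37 and 7.42 CPM in the WT mice against 43.4 and 43.1 CPM in the Tubb3-/- mice), with 57.5% of its UMIs in the 7 cells and an adjusted p of 0.512 without them. The other genes that the study follows in endothelial cells, Ntrk2 and Fxyd5, had log2 fold changes of 0.56 ± 0.37 (SE), adjusted p = 0.652 and 0.27 ± 0.24 (SE), adjusted p = 0.77.

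**Figure D4:**
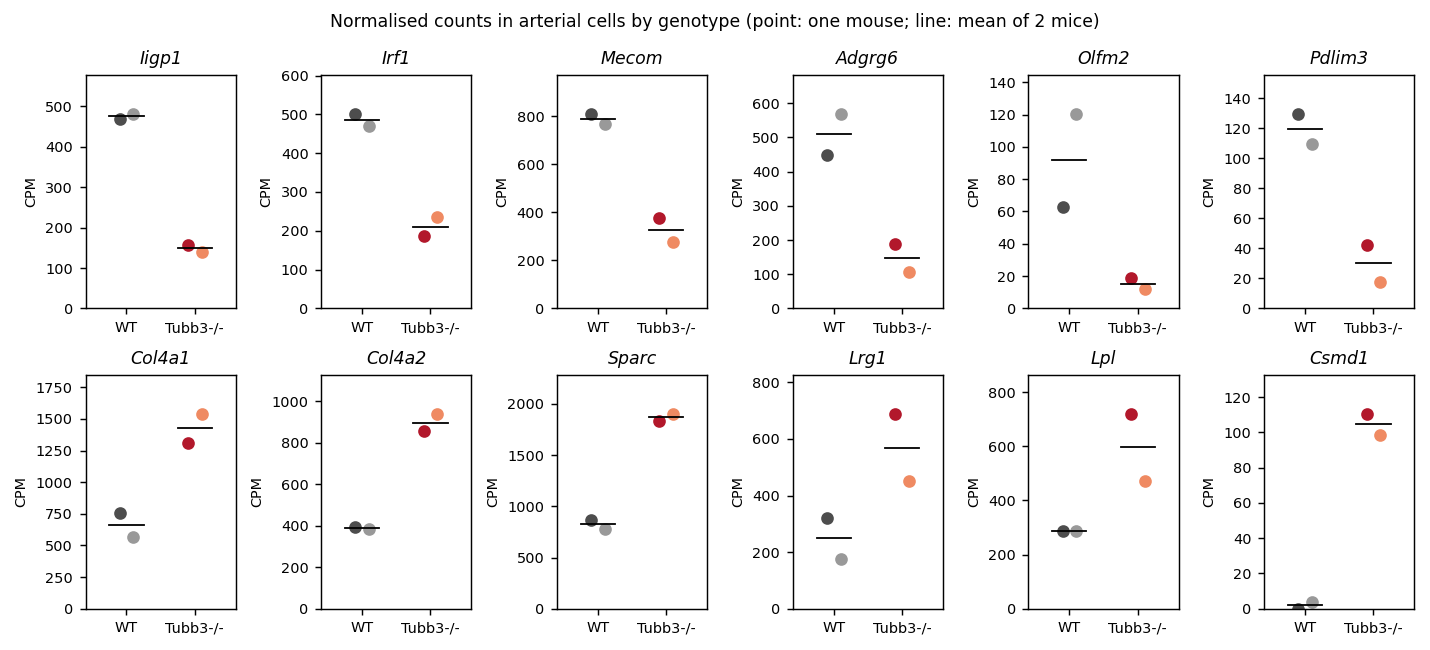
Normalized counts (CPM) of 12 genes in the arterial cells of each mouse (points; gray for WT, red and orange for Tubb3-/-), with the mean of 2 mice as a line. In the upper row (Iigp1 to Pdlim3) both Tubb3-/- mice lay below both WT mice, and in the lower row (Col4a1 to Csmd1) above them. Such lack of overlap was seen in 41.1% of all genes tested.

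Csmd1 and the cell cycle genes were high in few cells. Csmd1, a complement-regulating membrane protein, had 0 and 2 UMIs for WT against 107 and 73 for Tubb3-/- (adjusted p = 8.35e-05). These UMIs lay in 20 cells, and 3 cells held 52.7% of them. Mki67, the proliferation antigen, had 0 UMIs in both WT mice and 55 and 26 UMIs in the Tubb3-/- mice (adjusted p = 0.00159), in 10 cells, with 87.7% of them in 3. Of 18 cell cycle genes tested, 6 rose (Mki67, Top2a, Cdc20, Cdk1, Ube2c and Birc5), none fell, and the same 6 to 0 split held without the 7 cells. All 6 were also higher in both Tubb3-/- mice in the capillary gate. Mki67 had 22.2 and 8.51 CPM there in WT against 58.7 and 68.0 CPM in Tubb3-/- mice. None of the 6 was called in the interaction test below. Over 24 cell cycle genes, the arterial cells of the mice had 52, 130, 533 and 426 UMIs, of which single Tubb3-/- cells held 262, 230 and 79. The cell with 79 was the fibroblast-rich cell among the 7 cells, with 0.76 endothelial UMIs per 10000. Cells with at least 10 such UMIs numbered 0 of 37, 2 of 60, 4 of 78 and 4 of 70, with that fibroblast-rich cell among the 4 of 78. Hbb-bs, a hemoglobin chain with close copies, was also called higher, and 1 cell of Tubb3-/- mouse 1 held 1128 of its 1206 UMIs.

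By pool, the whole-cell libraries alone gave 118 called genes of 7153 tested (1.65%), 79 higher and 39 lower. In the mural cell-enriched libraries, with 11 to 22 arterial cells per mouse, Iigp1 was at 457 and 251 CPM in WT and 79.8 and 232 CPM in Tubb3-/- mice, and Col4a2 at 441 and 392 against 733 and 784 CPM, in the same direction as in the whole-cell libraries. Mecom (284 and 689 against 486 and 355 CPM), Adgrg6 (236 and 674 against 268 and 198 CPM) and Col4a1 (930 and 329 against 827 and 1534 CPM) overlapped there. Of the 72 genes called both ways, 36 kept their direction without overlap in the mural cell-enriched libraries. The other 36 did not, among them Olfm2, Pdlim3, Bdkrb2, Nrp2 and Grik2. In the whole-cell libraries 70 kept it and 2 did not. The share of all genes without overlap within a pool is not given here. In the summed data 20.7% of all genes tested were higher without overlap and 20.3% lower. Both pools were part of the sums that gave the calls, and the whole-cell libraries held 185 of the 245 cells. Neither count is therefore an independent check. The number of called genes also depended on the mouse. It was 98 without WT mouse 1, 38 without WT mouse 2, 63 without Tubb3-/- mouse 1 and 170 without Tubb3-/- mouse 2. Without cells that looked like doublets it was 13 of 5297 tested (0.245%), and among cells with at least 2 Gja5 UMIs 32 of 5819 (0.55%). After thinning to 5000 UMIs it was 0 of 4335, where 296 genes had an unadjusted p under the threshold. Thinning dropped the cells with fewer than 5000 UMIs and applied the rule anew. It left 25 and 45 arterial cells for WT and 62 and 45 for Tubb3-/-, so depth and membership changed together. Of 13 alternative settings, which share most of their cells, Iigp1 and Adgrg6 were called in 12, Col4a2, Sparc and Mecom in 11, Irf1 and Col4a1 in 9, Lrg1, Lpl, Cd34 and Bdkrb2 in 7, Grik2 in 6, Ackr3 and Apoe in 4 and Plat and Fosb in 2. After thinning, Mecom had a log2 fold change of -0.48 (adjusted p = 0.771), and without doublet-like cells Sparc had an adjusted p of 0.0667 (both edgeR).

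Whether the genotype difference of arterial cells differed from that of the capillary gate was tested as an interaction. It was called for 28 of 9544 genes (0.293%), all with a more positive change in arterial cells, among them C3, Gpc3 and the mesothelial gene Msln. Without the cells low in endothelial genes of both classes, 7 arterial and 29 capillary-gate cells, 1 of 9339 genes (0.0107%) was called, Hbb-bs, and 526 had an unadjusted p under the threshold. The capillary gate of the same mice gave these values for genes named above. Iigp1 had 445 and 335 CPM in WT and 161 and 269.8 CPM in Tubb3-/- mice there (interaction log2 -0.80 ± 0.27 (SE), adjusted p = 0.487), Irf1 had 496 and 511 CPM in WT and 262 and 293 CPM in Tubb3-/- mice (adjusted p = 0.79), and Col4a1 had 1380.5 and 869 CPM in WT and 1797 and 1652 CPM in Tubb3-/- mice (adjusted p = 0.69). Mecom, which is scarce in capillaries, had 30.3 and 41.9 CPM in WT and 32.9 and 25.4 CPM in Tubb3-/- mice (interaction -0.94 ± 0.23 (SE), adjusted p = 0.162). None of these interactions passed, which does not show that the classes responded alike.

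Arterial cells made up 6.73% and 7.78% of WT endothelial cells and 7.87% and 7.37% of Tubb3-/- endothelial cells. The log2 difference was 0.05 ± 0.19 (SE), adjusted p = 0.780 over the gates (edgeR). Permuting the 4 mice (exact, two-sided) gave p = 0.667, where the smallest p this design allows is 0.333. No difference in the share of arterial cells was detectable with 2 mice per genotype.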

How the data were processed

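Single-cell 3' gene expression was measured in a whole-cell pool and a mural cell-enriched pool of the same 4 mice. Split by mouse, the pools gave the 8 matrices called libraries here. Per the labels and the study's methods, the authors used Cell Ranger 7.1.0 with mm10 and an added Cre gene, and split CellPlex-tagged pools into mice. The strand setting and annotation version are not given in the sources used here, so reads of overlapping genes and near-identical copies are uncertain. The deposited values are raw UMI counts per gene and cell; tag counts were set aside.

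Of 32121 deposited cells, 30860 passed the limits. Counts were summed per mouse and class and tested with edgeR 4.0.16 (quasi-likelihood, TMM, low-count filter, Benjamini-Hochberg threshold 0.05; R 4.3.3), with the mouse as a block between classes. DESeq2 1.42.0 was an alternative. SE is the absolute log2 fold change over the square root of F. Doublets were kept, and an alternative left out cells with at least 2 marker genes of another class. Per direction, the 10 largest changes with mean CPM of at least 20, and genes of the lists, could be named. The largest changes also had to show no overlap of the genotypes or, between classes, the same direction in every mouse. The members, rule and lists were chosen with earlier results of these data known. In simulated genotype data, 86 of 100 changes of 4-fold and 28 of 100 of 2-fold were recovered. Positions are from GENCODE vM21 and start sites from RefSeq GRCm38.p6. A gene called in the interaction is not reported here. Intervals and floors cover counting error only, and p-values measure the spread between mice.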

Additional observations from a re-analysis of the deposited data

Results flagged for a closer look

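The genotype difference differed between arterial and capillary-gate cells for 28 genes by the edgeR interaction test, with the fitted log2 difference of the differences in brackets, always more positive in arterial cells. Those reported here were C3 (4.23), Gpc3 (5.34), Sox5 (3.94), Rarres2 (4.36), Gpm6a (6.84), Slc39a8 (6.14), Ptprd (2.70), Thsd4 (4.99), Pcdh7 (3.20), Adamtsl1 (5.79), Msln (5.66) and Sfrp2 (5.80). The list went on with Igfbp6 (4.59), Tango6 (3.26), Podn (4.23), Aebp1 (3.02), Upk3b (5.61), Alcam (3.03), C4b (2.76), Bicc1 (3.32), Bnc2 (10.4), Efemp1 (3.50) and Grip1 (5.38). The hemoglobin genes Hba-a2 (6.43) and Hbb-bs (4.79) have close copies, and 1128 of the 1206 arterial UMIs of Hbb-bs lay in 1 cell of Tubb3-/- mouse 1. The other two were Gm30382 (2.39) and Acta2 (1.34). Several of these genes had 0 to 3 UMIs in a WT sum, so that the fitted size depends on the prior count. Without the cells low in endothelial genes of both classes, 7 arterial and 29 capillary-gate cells, Hbb-bs was the only gene called by edgeR. In the 7 arterial cells lay 93.8% of the arterial UMIs of Msln, 87.5% of those of C3 and 88.0% of those of Gpc3. What the 7 cells are was not tested.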

How the results depend on the processing

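The number of genes called between genotypes (146 of 7775 tested) depended on the setting. So did the number tested, which ran from 4335 (thinned) to 16800 (no filter). It was 79 without the 7 cells low in endothelial genes, 91 in whole-cell libraries without them, 13 without doublet-like cells, 32 with at least 2 Gja5 UMIs (32 also without the 7 cells), 0 after thinning to 5000 UMIs (4335 genes tested by edgeR, 296 under an unadjusted p of 0.05), 56 with DESeq2, 27 with DESeq2 without the 7 cells, and 287 with no filter on low counts. Leaving out 1 mouse gave 38 (without WT 2) to 170 (without Tubb3-/- 2), with 63 without Tubb3-/- 1, and without the 7 cells 67 (without Tubb3-/- 1), 70 (without Tubb3-/- 2) and up to 183. No pairing of the mice by replicate number was evident (correlation of deviations 0.0875), which does not show that they are unpaired. The replicate block gave 259 calls, or 169 without the 7 cells. Against capillaries (686), there were 1043 calls with no filter, 342 with no mouse block and 430 (without Tubb3-/- 1) to 577 with 1 mouse left out. Against veins (632), there were 398 with DESeq2 and 376 (without Tubb3-/- 2) to 597 with 1 mouse left out. Against 28 interactions, the count was 7 without doublet-like cells (1 of them among the 28), 1 with at least 2 Gja5 UMIs (0 among the 28, and 1 also without low cells of both classes), 1 without low cells of both classes, 16 in whole-cell libraries without them (2 among the 28), 9 with DESeq2 (8 among the 28), 155 with no filter, and 6 (without WT 2) to 66 (without WT 1), with 49 without Tubb3-/- 2.

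Some directions reversed. Between genotypes these were Scgb1a1 (0.17 with at least 2 Gja5 UMIs, with or without the 7 cells), Col1a2 (-0.87 thinned), Col1a1 (-1.18 thinned, and without the 7 cells -0.20 in whole-cell libraries, -0.46 without WT 2 and -0.62 without Tubb3-/- 2) and Hbb-bs (-0.27 to 5.63 with 1 mouse left out, lowest without Tubb3-/- 1, and -0.18 there without the 7 cells). Against capillaries they were Acta2 (1.03 in whole-cell libraries, 1.00 there without low cells of both classes), Tagln (1.17 and 0.82) and Col1a2 (-0.96 with at least 2 Gja5 UMIs, -0.62 without low cells of both classes, and without those -0.60 in whole-cell libraries and -0.63 with at least 2 Gja5 UMIs). In the interaction they were Rarres2 (-0.82 without doublet-like cells, -0.0048 in whole-cell libraries without low cells of both classes), Thsd4 (-0.28 with at least 2 Gja5 UMIs) and Hbb-bs (-0.50 without WT 2 to 5.41 without WT 1). Beyond fewer cells or genes tested, the cause was not tested. The WT sums hold the fewest UMIs and limit what could be detected.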

Other observations

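In lists not described above, the genotype comparison of the arterial cells gave few calls. Of 17 MHC genes, 15 shear-responsive and KLF genes, 24 BMP and TGF-β genes, 17 hypoxia and glycolysis genes, 13 junction genes and 11 tubulin isotype genes tested, none was called in either direction. Over all 7775 genes tested 1.88% were called, so that the lack of calls in lists this short says little about them. Among 18 vasoactive genes Pde3a fell, among 20 elastic fiber genes Efemp1 rose, with 73.7% of its UMIs in the 7 cells, and among 15 mesenchymal transition genes Col1a1 and Col1a2 rose, both uncalled without those cells. The tubulin isotypes had a median log2 fold change of 0.32, against -0.0048 over all genes.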
